A study of Mus musculus with 2 samples.

Results

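Foxp3, Il2ra, Ikzf2, Il10, Areg and Neb were followed as a set of 6 genes named for regulatory T cell identity, out of 32285 genes in the tables. They were taken by their symbols from the raw UMI counts (UMIs are unique molecular identifiers, which count captured RNA molecules) and read in all barcodes with at least 2 summed UMIs of Cd3d, Cd3e and Cd3g, here called the CD3 gate, and in the other marker gates. The CD3 gate held 1493 of 5833 kept barcodes of the TB library (25.6%) and 1737 of 6419 of the PBS library (27.1%). Of these, 583 in the TB library and 572 in the PBS library also passed another marker gate, 351 and 323 of them the NK cell gate. The CD3 gate was therefore not taken to be a pure set of T cells.

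The study profiled immune cells sorted as CD45+ by flow cytometry from tumours of wild type BALB/c mice that carried subcutaneous MFC tumours, MFC being a mouse gastric carcinoma line. The TB group received thonzonium bromide (TB), a quaternary ammonium detergent, at 50 mg/kg every other day from day 6, and tumours were taken on day 10. The PBS group received PBS in place of the drug according to its treatment label, although both samples carry the same protocol text. There was 1 library per group, and the number of mice behind each library is not given in the sources used here.

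Regulatory T cells restrain other T cells and depend on the X-linked forkhead factor Foxp3, which holds their gene programme in place. They take up interleukin 2 through a receptor whose high-affinity chain is encoded by Il2ra (CD25), many of them carry the Ikaros family factor Helios encoded by Ikzf2, and tissue-resident ones can make the inhibitory cytokine interleukin 10 (Il10) and the epidermal growth factor family ligand amphiregulin (Areg). Neb encodes nebulin, a giant protein of skeletal muscle thin filaments, and its role in T cells is not a settled one.

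With 1 library per group no test between groups is possible, and intervals beside CPM values (UMIs per 1000000 UMIs of the barcodes summed), shares and ratios are exact 95% intervals that cover counting error only. Beside a count of 0, the limit given is 3 counts of the total. A gene with at least 50 UMIs over the groups compared was counted as higher or lower where its CPM differed by at least 1.5-fold. The reads come from the 3' ends of transcripts, so levels are compared within a gene and not between genes. The kept barcodes held 50871432 UMIs in the TB library (median 7259 per barcode) and 44148296 in the PBS library (median 4300). In the CD3 gate the medians were 7362 and 5193 UMIs, and haemoglobin genes took 0.424% of UMIs in the TB library and 1.93% in the PBS library. The libraries shared 14 deposited barcode sequences, of which 0 lay in the CD3 gate. The part that depth and haemoglobin RNA play in the differences between libraries was not tested.

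All 6 genes lie on assembled chromosomes of GRCm38, with positions from the GENCODE M21 annotation. Foxp3 (ENSMUSG00000039521) spans chromosome X, 7573644 to 7595245, on the plus strand. Il2ra (ENSMUSG00000026770) and Neb (ENSMUSG00000026950) both lie on chromosome 2, at 11642807 to 11693193 on the plus strand and at 52136647 to 52378474 on the minus strand. Ikzf2 (ENSMUSG00000025997) and Il10 (ENSMUSG00000016529) lie on chromosome 1, at 69531214 to 69687245 on the minus strand and at 131019845 to 131024974 on the plus strand. Areg (ENSMUSG00000029378) lies on chromosome 5, at 91139599 to 91148432 on the plus strand.

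Promoter windows, from 250 bases before to 50 bases after a transcription start, are shown because these genes were detected in the same barcodes. RefSeq (GRCm38.p6) windows matched 3 of the 6 genes by symbol, all but Ikzf2, Il10 and Neb. Capitals mark the TATA box TATAAA, the cyclic AMP response element TGACGTCA and the NFAT core GGAAA, which reads TTTCC when it lies on the other strand. The windows are chrX:7579426-7579725, chr2:11642542-11642841 and chr5:91139349-91139648, each on the plus strand and written 5′ to 3′.
Foxp3: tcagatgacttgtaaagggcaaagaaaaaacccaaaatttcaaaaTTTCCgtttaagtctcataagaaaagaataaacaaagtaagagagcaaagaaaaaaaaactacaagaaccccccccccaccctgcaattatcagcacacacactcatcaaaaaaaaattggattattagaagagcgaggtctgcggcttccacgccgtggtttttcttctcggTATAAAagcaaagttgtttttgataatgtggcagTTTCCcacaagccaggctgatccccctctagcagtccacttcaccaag
Il2ra: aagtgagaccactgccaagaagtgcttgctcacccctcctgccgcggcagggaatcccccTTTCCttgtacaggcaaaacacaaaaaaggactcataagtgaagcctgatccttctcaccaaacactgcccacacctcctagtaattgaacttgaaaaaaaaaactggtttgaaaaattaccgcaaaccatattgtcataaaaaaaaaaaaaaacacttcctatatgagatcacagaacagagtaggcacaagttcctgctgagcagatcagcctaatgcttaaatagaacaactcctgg
Areg: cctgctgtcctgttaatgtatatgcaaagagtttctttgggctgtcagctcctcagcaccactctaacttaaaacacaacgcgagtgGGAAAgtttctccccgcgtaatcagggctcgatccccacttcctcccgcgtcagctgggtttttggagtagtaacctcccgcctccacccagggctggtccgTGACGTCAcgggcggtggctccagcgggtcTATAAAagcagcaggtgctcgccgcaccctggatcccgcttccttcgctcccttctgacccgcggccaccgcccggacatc
TATAAA began 32 bases before the start of Foxp3 and 31 bases before that of Areg, and was not among the letters of the Il2ra window. Either strand of 13.6% of 32851 RefSeq mouse promoter windows held TATAAA. TGACGTCA was found in the Areg window only, 61 bases before the start, and 1.79% of all windows held it. Each window held a GGAAA on one strand or the other, as did 61.3% of all windows, and TGTGGT, the letters of a RUNX site, was found in none of these windows and in 16.8% of all. A second Foxp3 start (window chrX:7580233-7580532, not printed) held an overlapping GGAAA and STAT-type TTCNNNGAA, and TTCNNNGAA was found in 8.3% of all windows. A match describes letters and is neither a bound site nor a cause.

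Foxp3 RNA lay almost entirely in the CD3 gate and in a smaller share of its barcodes in the TB library. A Foxp3 UMI was detected in 140 of 1493 CD3-gate barcodes of the TB library (9.38%, 7.95 to 11.0) and in 284 of 1737 of the PBS library (16.4%, 14.6 to 18.2), a ratio of 0.574. The intervals of the 2 libraries did not overlap. With every barcode thinned to 2000 UMIs, the shares were 6.46% (5.25 to 7.85) of 1455 barcodes in the TB library and 12.9% (11.3 to 14.7) of 1495 in the PBS library, a ratio of 0.50, with 38 and 242 shallower barcodes left out. Thinning to 1000 UMIs gave 4.10% and 8.22%. In B cell-gate barcodes, which should lack Foxp3, it was found in 0 of 412 of the TB library, which allows a share of up to 0.728%, and in 0 of 157 of the PBS library, which allows up to 1.91%, at median depths of 3618 and 3815 UMIs.

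The number of Foxp3 UMIs per positive barcode, not scaled to depth, was close in both libraries. Foxp3-positive barcodes held a mean of 3.11 Foxp3 UMIs in the TB library (highest 10) and 2.93 in the PBS library (highest 12). Scaled to their UMIs, these barcodes had 476 and 565 CPM of Foxp3, a ratio of 0.843 (0.749 to 0.947), with the TB library lower. A single UMI carried the call in 45 of the 140 TB barcodes (32.1%) and in 90 of the 284 PBS barcodes (31.7%), and 5 or more UMIs were found in 34 and 57 barcodes. Foxp3-positive barcodes were shallower than the other CD3-gate barcodes in both libraries, with medians of 4788 against 7721 UMIs in the TB library and 4299 against 5609 in the PBS library.

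**Figure D1:**
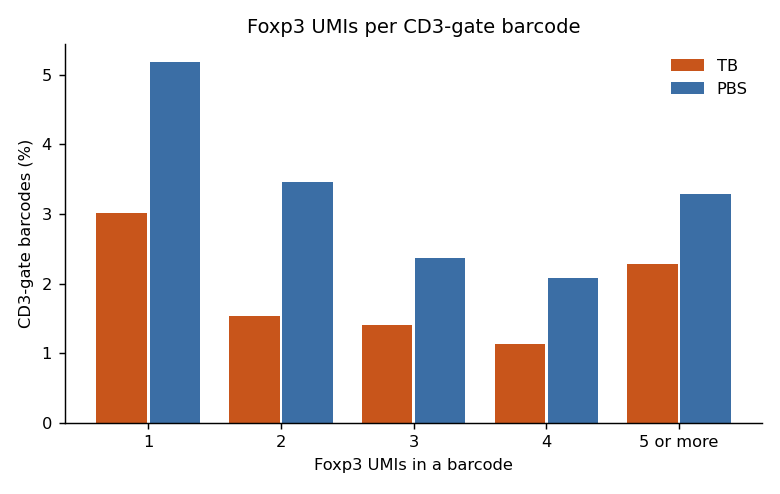
Share of CD3-gate barcodes, in percent, that held 1, 2, 3, 4 or at least 5 Foxp3 UMIs, for the TB library (orange, 1493 barcodes) and the PBS library (blue, 1737 barcodes). The TB bar is the lower one in each of the 5 classes, for example 3.01% against 5.18% at 1 UMI and 2.28% against 3.28% at 5 or more.

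The barcodes called Foxp3-positive carried T cell genes. The T cell receptor constant gene Trac was detected in 94.3% of them in the TB library and 89.4% in the PBS library, Cd4 in 55.0% and 50.4%, and Ctla4, an inhibitory receptor gene of regulatory T cells, in 71.4% and 75.0%. Cd8a was found in 6.43% and 5.63%, Cd8b1 in 11.4% and 5.63%, the gamma-delta receptor gene Trdc in 6.43% and 4.58%, and the NK cell gene Ncr1 in 5.00% and 5.99%. Acta1 of skeletal muscle, Col1a1 of fibroblasts and Krt8 of epithelium were at 0 UMIs in both. Transcripts of other cells differed between the libraries, with the erythroid gene Hbb-bs in 31.4% of Foxp3-positive barcodes of the TB library and 82.7% of the PBS library, the myeloid gene Lyz2 in 29.3% and 12.7%, and the neutrophil gene S100a8 in 10.0% and 3.87%; their part in the differences below was not tested.

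The libraries stood apart among barcodes with many CD3 UMIs, and the inner edge of the gate held too few Foxp3-positive barcodes to compare them. Barcodes with a CD3 sum of exactly 2 held Foxp3 in 5 of 82 cases in the TB library (6.1%, 2.01 to 13.7). In the PBS library they held it in 19 of 283 (6.71%, 4.09 to 10.3). Barcodes just outside, with a sum of 1, held it in 4 of 310 (1.29%) and 29 of 941 (3.08%). At a CD3 sum of 10 or more, the shares were 8.29% of 1073 TB barcodes (6.71 to 10.1) and 16.4% of 896 PBS barcodes (14.0 to 19.0). The coreceptors divided the gate more sharply. Foxp3 was found in 44.4% of 153 TB barcodes and 49.6% of 266 PBS barcodes with Cd4 and no Cd8a or Cd8b1 UMI, with overlapping intervals (36.4 to 52.7 and 43.5 to 55.8), and in 1.37% of 731 and 2.58% of 620 barcodes with Cd8 and no Cd4 UMI. Barcodes with neither coreceptor held it in 9.03% of 587 TB and 15.3% of 819 PBS cases. The barcodes with Cd4 alone made up 10.2% of the CD3 gate in the TB library and 15.3% in the PBS library.

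The annotation places other genes over the Foxp3 locus, and without a stated strand setting their reads cannot be fully separated from it. Flicr, a noncoding RNA gene on the same strand, had 16 UMIs in Foxp3-positive barcodes of each library and 0 and 8 UMIs in Foxp3-negative ones. Ppp1r3f, which lies on the opposite strand, was at 14.2 and 17 CPM in Foxp3-positive barcodes and at 1.60 and 2.33 CPM in Foxp3-negative ones. Ccdc22, also on the opposite strand, had 10 and 15 UMIs in Foxp3-positive barcodes and 111 and 71 in Foxp3-negative ones. The CD3 gate held 435 and 833 Foxp3 UMIs.

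Across marker gates, the CD3 gate held most UMIs of every one of the 6 genes. Its share of all kept UMIs of a gene was 96.2% in the TB library and 90.5% in the PBS library for Foxp3, 68.3% and 69.7% for Il2ra, 82.5% and 80.8% for Ikzf2, 79.3% and 85.4% for Il10, 75.0% and 66.1% for Areg, and 85.4% and 80.9% for Neb. Foxp3 was sparse in the other gates, with 1 UMI in 1037 NK cell-gate barcodes of the TB library and 8 in 1101 of the PBS library. Barcodes that passed no gate came next, at 11.8 and 27.2 CPM, and had median depths of only 1056 and 970 UMIs.

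**Figure D2:**
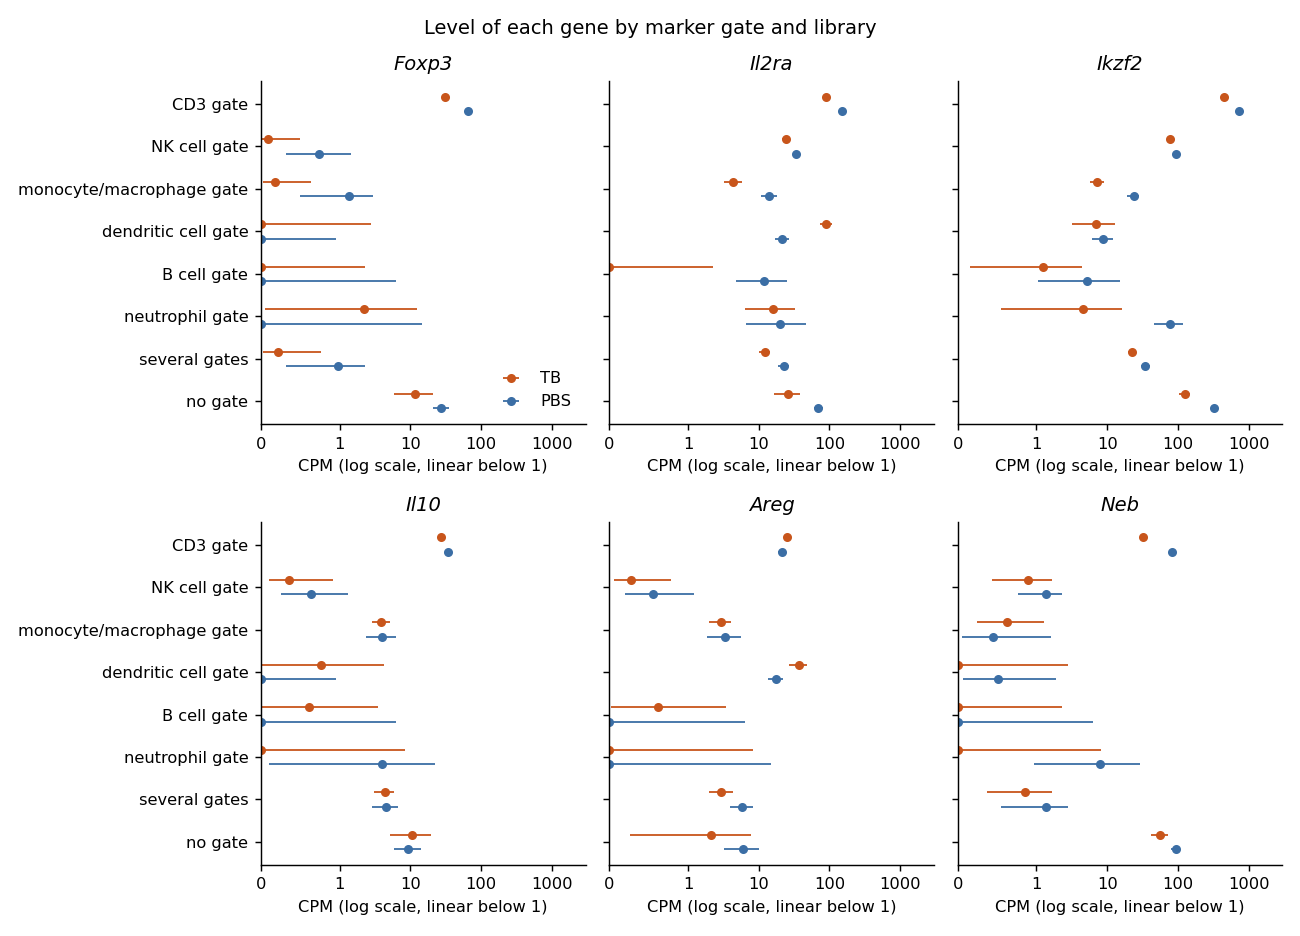
CPM of each of the 6 genes by marker gate, on a log axis that is linear below 1 CPM, for the TB library (orange, upper point) and the PBS library (blue, lower point) with exact Poisson 95% intervals, in gates of at least 50 barcodes in both libraries. Foxp3 was highest in the CD3 gate (30.9 and 65.8 CPM), Neb was at 32.2 and 82.5 CPM there and at 55.9 and 92.8 CPM in barcodes without a gate; the dendritic cell gate is a mixture described in the text.

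Il2ra was not limited to the CD3 gate. NK cell-gate barcodes had 24.1 CPM in the TB library (15.7% of barcodes) and 33.5 CPM in the PBS library (18.7%). Il2ra was also found in the dendritic cell gate, whose barcodes were of more than one kind: those that passed through Fscn1 alone (8 in the TB library and 45 in the PBS library) carried Cald1 and Rhox5, genes not typical of leukocytes, in 87.5% and 91.1% of cases, and 0 and 1 Il2ra UMIs. Among dendritic cell-gate barcodes with at least 2 UMIs of Ccr7, the chemokine receptor gene of migratory dendritic cells, Il2ra was detected in 25 of 46 in the TB library (54.3%, 39.0 to 69.1) and 23 of 38 in the PBS library (60.5%, 43.4 to 76.0), at 256 and 177 CPM with overlapping intervals (210 to 309 and 134 to 230). This Ccr7 subset was chosen after the values of the gate were seen.

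Ikzf2 also reached beyond the CD3 gate. Its level in the CD3 gate was 441 CPM in the TB library and 731 CPM in the PBS library, followed by barcodes with no gate at 125 and 325 CPM. NK cell-gate barcodes had 77.9 and 93.8 CPM, with a UMI in 32.0% and 38.8% of them. The plasmacytoid dendritic cell gate had 117 and 119 CPM, from 10 of 19 barcodes in the TB library and 34 of 78 in the PBS library, and in both libraries its interval overlapped that of the NK cell gate. B cell-gate barcodes had 2 and 3 Ikzf2 UMIs.

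Il10 and Areg were lower in the monocyte/macrophage gate than in the CD3 gate. Il10 was at 27.6 CPM in the CD3 gate of the TB library and 33.8 CPM in that of the PBS library, against 3.90 and 4.04 CPM in the monocyte/macrophage gate (44 and 18 UMIs) and 10.7 and 9.36 CPM in barcodes with no gate (10 and 22 UMIs). Areg was at 2.92 and 3.36 CPM in the monocyte/macrophage gate and at 36.6 and 17.5 CPM in the dendritic cell gate, from 48 UMIs in 3 barcodes of the TB library and 68 UMIs in 13 of the PBS library. In the Ccr7-bearing barcodes of that gate it came to 47 UMIs in the TB library, 33 of them in 1 barcode, and to 0 in the PBS library, where 52 of the 68 UMIs lay in barcodes that passed through Fscn1 alone. In both libraries the monocyte/macrophage level of Il10 did not differ beyond its interval from that of barcodes passing several gates (4.35 and 4.51 CPM).

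Neb followed the CD3 gate closely, apart from shallow barcodes that no gate took. It was at 0.897 CPM in the NK cell gate of the TB library and 1.38 CPM in that of the PBS library, and at 0.620 and 0.449 CPM in the monocyte/macrophage gate. Barcodes with no gate held Neb in 22 of 472 cases in the TB library and 96 of 1571 in the PBS library, with median depths of 849 and 928 UMIs. Of these Neb-bearing barcodes, 77.3% in the TB library and 70.8% in the PBS library also held Ikzf2 and 31.8% and 17.7% held Foxp3, against 6.89% and 17.1% (Ikzf2) and 0.667% and 2.03% (Foxp3) of the no-gate barcodes without Neb. A CD3 sum of 1, just short of the gate, was found in 9 of the 22 and 38 of the 96.

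Muscle transcripts did not accompany Neb in the CD3 gate. At least 10 UMIs of muscle genes were found in 2 barcodes of the TB library, both outside the CD3 gate and with 6 of the 529 Neb UMIs of that library, and in 0 of the PBS library. A UMI of Acta1, Ckm, Tnnc2, Mylpf or Tnnt3, defining genes of skeletal muscle, was found in 17 of 212 Neb-bearing CD3-gate barcodes of the TB library (8.02%, at most 3 UMIs) and in 12 of 378 of the PBS library (3.17%, at most 1 UMI). In CD3-gate barcodes without Neb the shares were 7.96% and 6.62%, close to the share beside Neb in the TB library and above it in the PBS library.

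Within the CD3 gate, the other 5 genes were detected far more often beside Foxp3 than without it. At 2000 UMIs per barcode, Il2ra was found in 64.4% of 135 Foxp3-positive barcodes against 7.50% of 1320 Foxp3-negative ones in the TB library, and in 72.5% of 262 against 12.6% of 1233 in the PBS library. Ikzf2 was found in 94.1% against 31.8% in the TB library and in 93.5% against 45.2% in the PBS library, so it was found in nearly all Foxp3-positive barcodes and was common outside them. Il10 was found in 27.4% against 2.35% in the TB library and in 18.7% against 2.84% in the PBS library. Areg was the rarest, in 4.44% against 0.606% and in 5.34% against 1.30%. Neb was found in 38.5% against 4.09% in the TB library and in 55.0% against 6.89% in the PBS library. The thinned B cell-gate shares of these genes lay at 0 except for Il10 in the TB library (0.251%) and Il2ra (2.84%) and Ikzf2 (1.42%) in the PBS library.

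**Figure D3:**
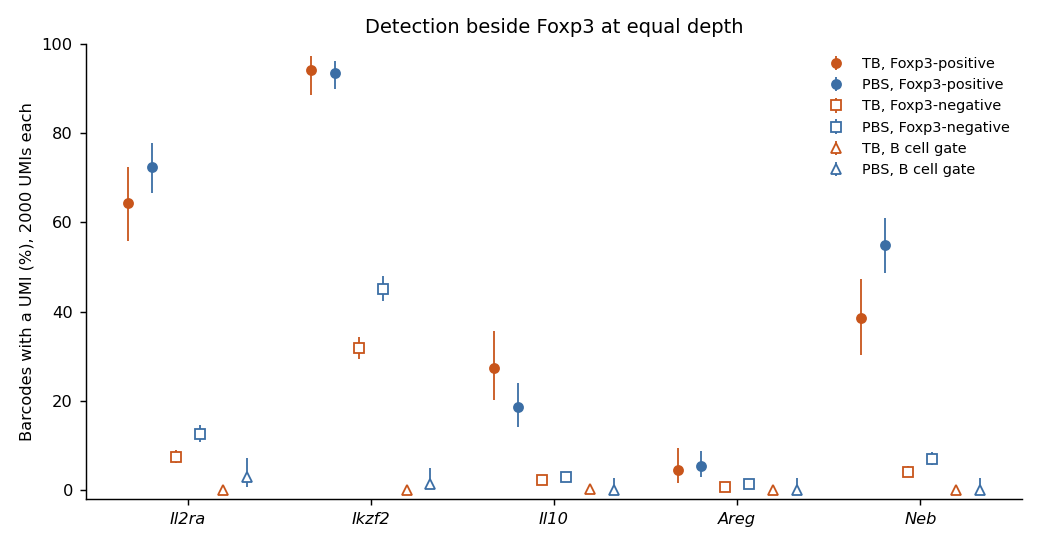
Share of barcodes with a UMI of each gene after thinning to 2000 UMIs per barcode, with exact binomial 95% intervals, in Foxp3-positive (filled circles) and Foxp3-negative (open squares) CD3-gate barcodes and in the B cell gate (triangles), TB in orange and PBS in blue. Each Foxp3-positive share lies above the Foxp3-negative share of the same library, from 4.44% against 0.606% for Areg to 94.1% against 31.8% for Ikzf2 in the TB library.

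The levels of all 5 genes were higher beside Foxp3. Il10 was 17.5-fold higher in Foxp3-positive than in Foxp3-negative barcodes of the TB library (14.3 to 21.5; 233 and 13.3 CPM) and 14.5-fold in the PBS library (11.8 to 17.8; 191 and 13.1 CPM). Neb was 16.0-fold higher in the TB library (13.2 to 19.3; 261 and 16.3 CPM) and 12.7-fold in the PBS library (11.2 to 14.5; 444 and 34.9 CPM). Il2ra was 13.9-fold higher in the TB library (12.4 to 15.5; 679 and 48.9 CPM) and 11.3-fold in the PBS library (10.3 to 12.4; 761 and 67.2 CPM). The intervals of these 3 genes overlapped within each library, and their order changed with the setting. Thinned to 2000 UMIs, the ratios were 10.8 in the TB library and 7.57 in the PBS library for Il10, 10.9 and 8.30 for Neb, and 10.3 and 8.09 for Il2ra; at 1000 UMIs the PBS ratios were 9.09, 6.37 and 7.16. Ikzf2 was 5.90-fold higher (1972 and 334 CPM) and 4.52-fold higher (2343 and 518 CPM), and Areg 4.60-fold (93.1 and 20.2 CPM) and 5.09-fold (73.3 and 14.4 CPM). The Areg ratio of the TB library was 15.3 (11.1 to 21) without a single Foxp3-negative barcode described below. Without barcodes that passed another gate, the TB and PBS ratios were 12.4 and 10.6 for Il10 and 11.8 and 9.17 for Il2ra. They were 6.56 and 4.00 for Ikzf2 and 2.23 and 3.36 for Areg. All 5 genes were thus at least 1.5-fold higher in each library, where 20.4% of 10159 genes tested were higher and 16.8% lower in the TB library, and 20.8% of 10024 were higher and 18.2% lower in the PBS library.

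Foxp3 became more frequent as more of the other 5 genes were seen in a barcode. In the TB library it was found in 0 of 539 barcodes with none of them (which allows a share of up to 0.557%), 11 of 567 with 1 (1.94%), 26 of 213 with 2 (12.2%), 60 of 113 with 3 (53.1%) and 43 of 61 with 4 or 5 (70.5%). In the PBS library the numbers were 4 of 496 (0.806%), 14 of 635 (2.20%), 67 of 266 (25.2%), 127 of 236 (53.8%) and 72 of 104 (69.2%). The libraries were close to each other at 3 or more genes and apart at 2. These counts were not thinned, and median depths at 2 genes were 9477 UMIs in the TB library and 6012.5 in the PBS library. At 3 genes they were 4787 and 4256 UMIs, and at 4 or 5 genes 5242 and 4948. The part of depth in the gap at 2 genes was not tested.

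**Figure D4:**
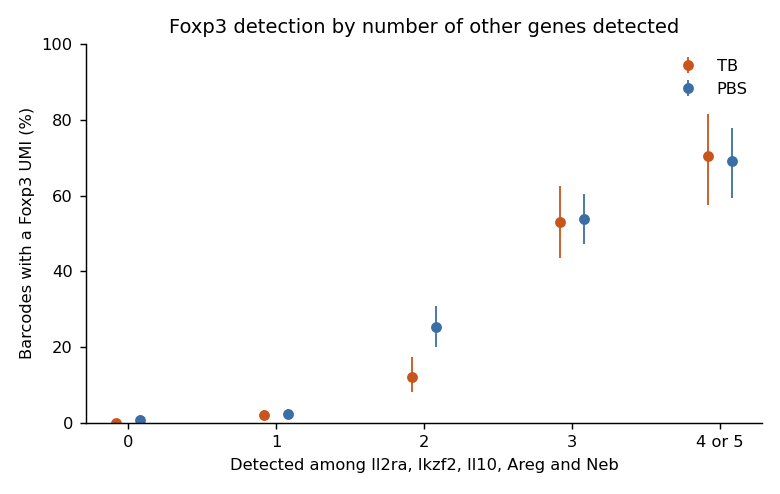
Share of CD3-gate barcodes with a Foxp3 UMI, in percent with exact binomial 95% intervals, against how many of Il2ra, Ikzf2, Il10, Areg and Neb were detected in the barcode, for the TB library (orange) and the PBS library (blue). The share climbs to 70.5% and 69.2% in barcodes with 4 or 5 of them.

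Il2ra and Neb were also found together in barcodes without a Foxp3 UMI. Il2ra and Neb were detected together with Foxp3 in 85 barcodes of the TB library and 185 of the PBS library, and together without Foxp3 in 57 and 118. Of these Foxp3-lacking barcodes, 80.7% in the TB library and 90.7% in the PBS library held Ikzf2 and 64.9% and 69.5% held Ctla4, against a Ctla4 share of 21.1% and 13.2% in the 1023 and 1060 barcodes with none of Foxp3, Il2ra and Neb. Cd8a or Cd8b1 was found in 47.4% of them in the TB library and 25.4% in the PBS library, against 11.8% and 9.19% of barcodes with all 3 genes. Cd4 was found in 28.1% and 49.2% of the barcodes with Il2ra and Neb but no Foxp3, against 56.5% and 53.5% of those with all 3.

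Among Foxp3-positive barcodes, Il10 was detected more often and Il2ra stood higher where Neb was detected. Of the 95 with a Neb UMI in the TB library 45.3% (35.0 to 55.8) held Il10, against 28.9% (16.4 to 44.3) of those without, with overlapping intervals. Of the 205 in the PBS library 31.7% (25.4 to 38.6) held Il10, against 15.2% (8.10 to 25.0), with intervals that did not overlap. Their Il2ra level was 721 CPM in the TB library, 1.25-fold that of barcodes without Neb (1.04 to 1.51), and 816 CPM in the PBS library, 1.40-fold (1.20 to 1.64). Their Il10 level was 1.73-fold that of barcodes without Neb in the TB library (1.22 to 2.49) and 1.31-fold in the PBS library (0.968 to 1.80). The PBS interval of Il10 includes equal levels. Median depths with and without Neb were 4787 and 4801 UMIs in the TB library and 4583 and 3971 in the PBS library. Barcodes with Il10 (56 and 77) held Neb in 76.8% and 84.4% of cases, and their Il2ra level was 1.33-fold and 1.22-fold that of barcodes without Il10. Barcodes with Il10 were deeper in the TB library (median 5082 against 4418 UMIs) and in the PBS library (4916 against 4225), and the part of depth in these shares was not tested. Areg was found in only 11 Foxp3-positive barcodes of the TB library and 18 of the PBS library.

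Between the libraries, Foxp3, Neb, Il2ra and Ikzf2 were lower in the CD3 gate of the TB library, and Il10 and Areg differed less. Foxp3 was at 30.9 CPM in the TB library (435 UMIs) and 65.8 CPM in the PBS library (833 UMIs), a ratio of 0.470 (0.418 to 0.529). Neb was at 32.2 and 82.5 CPM, a ratio of 0.390 (0.348 to 0.436). Il2ra was at 89.9 and 148 CPM, a ratio of 0.607 (0.565 to 0.652). These 3 genes and Ikzf2, at 441 and 731 CPM (ratio 0.603, 0.584 to 0.623), made 4 of the 6 that were at least 1.5-fold lower, where 4.01% of 11277 genes tested were lower and 4.4% higher, and 0 of the 6 were higher. Il10 was at 27.6 and 33.8 CPM, a ratio of 0.816 (0.709 to 0.938). The count of 4 became 2 when the gate was opened to barcodes with 1 CD3 UMI, and 5 when thinned to 2000 UMIs, where Areg had a ratio of 0.607.

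Areg in the CD3 gate rested on few barcodes. It was at 25.0 CPM in the TB library (351 UMIs in 39 barcodes) and 21.3 CPM in the PBS library (269 UMIs in 55 barcodes), a ratio of 1.17 (0.999 to 1.38). A single Foxp3-negative barcode held 186 of the 351 TB UMIs (53.0%), whereas the top PBS barcode held 13.4%. That TB barcode, singled out after its values were seen, had 16088 UMIs, a CD3 sum of 40, 43 Il2ra, 34 Il10, 23 Il1rl1 and 10 Gata3 UMIs, and 0 Foxp3, Ikzf2, Cd4, Cd8a and Trdc UMIs. Il1rl1 encodes the interleukin 33 receptor and Gata3 a factor of type 2 lymphocytes. Without it, Areg was at 11.8 CPM in the TB library, a ratio of 0.553 (0.453 to 0.674), so the direction turned and Areg too was past 1.5-fold lower.

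Within Foxp3-positive barcodes the libraries stood closer for the 4 genes that were past 1.5-fold in the whole gate. These barcodes held 6.50% of CD3-gate UMIs in the TB library and 11.6% in the PBS library. Il2ra in them was at 679 CPM in the TB library and 761 CPM in the PBS library (ratio 0.892, 0.807 to 0.984) and Ikzf2 at 1972 and 2343 CPM (0.842, 0.795 to 0.891). Foxp3 itself, which chose these barcodes, was at 476 and 565 CPM (0.843, 0.749 to 0.947). Neb was at 261 and 444 CPM, a ratio of 0.587 (0.504 to 0.682), and was the 1 gene of 6 past 1.5-fold, where 6.04% of 5898 genes tested were lower and 5.88% higher. The Neb call depended on the setting. Its log2 ratio of -0.77 was -0.88 when 2 Foxp3 UMIs were asked for and -0.21 with each barcode scaled alike. Neb detection was lower in the TB library at 2000 UMIs per barcode (intervals 30.3 to 47.3 and 48.7 to 61.1). The detection intervals overlapped at 1000 UMIs (25.0% and 33.7%) and in unthinned counts (67.9% and 72.2%).

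The cytokine genes were not lower in Foxp3-positive barcodes of the TB library. Il10 was at 233 CPM in the TB library and 191 CPM in the PBS library, a ratio of 1.22 (1.02 to 1.47), detected in 40.0% and 27.1% of barcodes before thinning, with overlapping intervals. Its ratio was 0.994 when 2 Foxp3 UMIs were asked for, 1.60 when thinned to 2000 UMIs and 1.63 with each barcode scaled alike. Areg was at 93.1 and 73.3 CPM, a ratio of 1.27 (0.944 to 1.70) that rests on 11 and 18 barcodes.

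Foxp3-negative CD3-gate barcodes also differed. Ikzf2 was at 334 CPM in the TB library and 518 CPM in the PBS library (ratio 0.645, 0.620 to 0.671) and Neb at 16.3 and 34.9 CPM (0.467, 0.393 to 0.553), which made 2 of 5 genes at least 1.5-fold lower, where 4.04% of 11102 genes tested were lower and 4.56% higher. Il2ra was at 48.9 and 67.2 CPM (0.728, 0.654 to 0.810), and passed 1.5-fold when thinned to 2000 UMIs (0.647) or 1000 UMIs (0.547) or with each barcode scaled alike (0.579), which made 3 of 5. With the gate at 1 CD3 UMI Ikzf2 came to 0.787, which left 1. Il10 was at 13.3 and 13.1 CPM (1.01, 0.809 to 1.27). Areg was at 20.2 and 14.4 CPM (1.41, 1.15 to 1.72), and at 6.09 and 14.4 CPM (0.423, 0.320 to 0.557) without the single barcode described above. Il10 came to a ratio of 0.817 (0.644 to 1.04) without it. With the Foxp3-positive barcodes of the TB library given the UMI weight they had in the PBS library, the CD3-gate ratios came to 0.843 for Foxp3, 0.826 for Il2ra, 0.719 for Ikzf2, 1.15 for Il10, 1.35 for Areg (0.763 without the single barcode) and 0.542 for Neb. Foxp3 UMIs lay only in the Foxp3-positive barcodes, so its ratio at equal weight is by construction the ratio within those barcodes. Of the other 5 genes, only Neb was past 1.5-fold at equal weight. The share of all genes past that fold was not computed at equal weight.

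**Figure D5:**
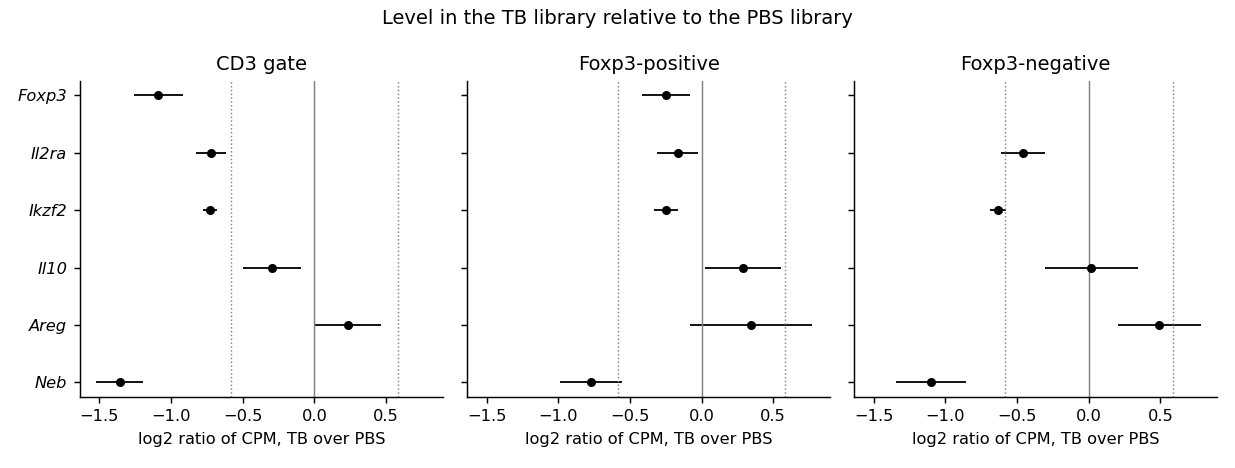
The log2 ratio of CPM in the TB library over the PBS library for each gene, with exact conditional 95% intervals, in the CD3 gate, in Foxp3-positive and in Foxp3-negative CD3-gate barcodes; dotted lines mark 1.5-fold. Foxp3 and Neb lie lowest in the CD3 gate (-1.09 and -1.36), and Neb alone lies past the left line in Foxp3-positive barcodes (-0.77).

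The 6 genes were also read by coreceptor. In barcodes with Cd4 and no Cd8 UMI, Neb was at 191 CPM in the TB library and 396 CPM in the PBS library, Ikzf2 at 1347 and 1870 CPM, Il2ra at 471 and 571 CPM, and Il10 at 175 and 174 CPM. In barcodes with Cd8 and no Cd4 UMI, where Foxp3 was rare, Ikzf2 was at 215 and 456 CPM and was detected in 43.8% and 61.5%, Il2ra was at 32.3 and 56.7 CPM, and Neb was at 13.5 and 19.3 CPM. Il10 in the Cd8 subset was at 5.32 and 3.19 CPM, from 41 and 18 UMIs. Foxp3 was at 272 CPM (239 to 308) in the Cd4 subset of the TB library and 313 CPM (284 to 344) in that of the PBS library. In the Cd8 subset Foxp3 was at 2.21 and 9.39 CPM. Areg was higher in the TB library in the Cd4 subset (81.2 and 41.6 CPM, from 9 and 18 barcodes). It was lower there in the Cd8 subset (8.96 and 23.0 CPM, from 18 and 14 barcodes).

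Other genes of the regulatory T cell programme tracked Foxp3 in the same barcodes. Of 28 listed genes, 26 could be measured in each library. In Foxp3-positive over Foxp3-negative barcodes, 20 were at least 1.5-fold higher in the TB library and 22 in the PBS library, with 0 lower. Over all genes tested, 20.4% were higher and 16.8% lower in the TB library, and 20.8% and 18.2% in the PBS library. The median log2 ratios of the list were 2.07 and 2.10, against 0.11 and 0.10 over all genes. The highest in the TB library were Lrrc32, which encodes the TGF-beta docking receptor GARP (38.1-fold), the costimulatory receptor gene Tnfrsf4 (19.8-fold) and Ebi3, which encodes a subunit of interleukin 35 (15.5-fold), and in the PBS library Tnfrsf4 (13.3-fold), Klrg1 (12.7-fold) and the integrin gene Itgae (11.7-fold). At the low end stood Cd83 (1.11), Il2rb (0.904) and Rgs1 (0.892) in the TB library and Tgfb1 (1.16), Il2rb (0.878) and Nrp1 (0.853) in the PBS library.

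Between libraries, more programme genes were lower than higher in the CD3 gate of the TB library. There 0 of 27 measured were higher and 7 lower, where 4.4% of all genes tested were higher and 4.01% lower, with a median log2 ratio of -0.42 against -0.04 over all genes tested. The lowest were Lrrc32 (ratio 0.432), Tnfrsf4 (0.541; 181 and 334 CPM) and Ebi3 (0.585), and the highest Il1rl1 (1.45, and 1.28 without the single Areg-rich barcode), Entpd1, which encodes the ectonucleotidase CD39 (1.43), and S100a4 (1.33). In Foxp3-positive barcodes the median was -0.11 against -0.01 over all genes, with 1 of 24 higher, the folate receptor gene Izumo1r (205 and 133 CPM, ratio 1.54), and 0 lower, where 5.88% of all genes tested were higher and 6.04% lower. Nrp1 (1.44) and Ccr8 (1.39) followed Izumo1r, and Ctla4 (0.703), Swap70 (0.760) and Entpd1 (0.765) were lowest. In Foxp3-negative barcodes 2 of 26 were higher, Entpd1 (1.93) and Il1rl1 (1.54, and 1.35 without that barcode, so that 1 stayed past 1.5-fold), and 4 lower, among them Lrrc32 (0.284), where 4.56% of all genes tested were higher and 4.04% lower, with a median of -0.14 against -0.03.

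Genes of interleukin 2 signalling, which acts downstream of the receptor that Il2ra completes, were also read against Foxp3 and between libraries. Of 10 listed, 9 were measured, and in Foxp3-positive over Foxp3-negative barcodes 4 were higher and 1 lower in each library, where 20.4% of all genes tested were higher and 16.8% lower in the TB library and 20.8% and 18.2% in the PBS library. The median log2 ratios were 0.42 in the TB library and 0.55 in the PBS library, against 0.11 and 0.10 over all genes. The feedback genes Socs2 (5.79-fold and 8.10-fold) and Cish (2.17-fold and 3.10-fold) were the highest, and Bcl2, which encodes a survival protein, was the lowest (0.109 and 0.153). Between libraries, 0 were higher and 0 lower in the CD3 gate (median -0.10 against -0.04 over all genes) and in Foxp3-negative barcodes (median -0.05 against -0.03). In Foxp3-positive barcodes the median was -0.36 against -0.01, and the feedback gene Cish was at 282 and 368 CPM (ratio 0.767, 0.658 to 0.891). Of the 9 genes 0 were higher and 1 lower, Bcl2 (61.3 and 92.3 CPM, ratio 0.664), a call that median-of-ratios scaling took to 0, where 5.88% of all genes tested were higher and 6.04% lower.

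The genes most like Foxp3, listed genes included, were ranked by their CPM in Foxp3-positive over Foxp3-negative CD3-gate barcodes, taking the smaller log2 ratio of the 2 libraries, over 2857 genes with at least 50 UMIs in Foxp3-positive barcodes of each library. The integrin gene Itgb8 led (41.7-fold in the TB library and 19.8-fold in the PBS library), followed by Tnfrsf4, Klrg1, Lrrc32, Itgae, the proenkephalin gene Penk (70.9-fold and 10.4-fold), Ebi3, Maf, Icos and Sv2c. Of these 10 genes, 6 belong to the programme list, all but Itgb8, Penk, Maf and Sv2c. On the same scale Il10 held rank 3, Neb rank 6, Il2ra rank 8, Areg rank 45 (on a TB ratio that the single barcode described above lowers) and Ikzf2 rank 46. The ratios describe the barcodes of these libraries and carry no test. The programme list was chosen with earlier results of these data known. Its share of the 2857 ranked genes was not computed, so the 6 of 10 is a description only.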

How the data were processed

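The deposited 10x matrices hold UMI counts per gene and barcode; the authors' tool was Cell Ranger, version 6.1.2, per the file headers, and Seurat 3.0, R 3.5.3 and the build mm10 stand in the submitters' processing notes. Barcodes were kept where at least 200 genes were detected and no more than 20% of UMIs were mitochondrial. Gates used summed raw UMIs of marker genes (CD3 gate at 2 UMIs; the other gates needed fewer CD3 UMIs and no second gate). Foxp3-positive means at least 1 Foxp3 UMI in the CD3 gate, read before thinning in the co-detection shares. CPM intervals are exact Poisson, shares Clopper-Pearson, ratios conditional binomial (Python 3.11.15, scipy 1.17.1). No barcode was removed as a doublet; an alternative left out the top 5% by UMIs. Named list genes are the 3 highest and 3 lowest ratios with at least 50 UMIs, and likeness names the first 10 genes. The 6 genes and the lists were chosen with earlier results of these data known. The scripts were tested on simulated counts.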

Additional observations from a re-analysis of the deposited data

Results flagged for a closer look

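Barcodes removed by the filter on genes and mitochondrial UMIs held 0 Foxp3 UMIs in the TB library, among 891 such barcodes, and 7 Foxp3 UMIs in the PBS library, among 1384. These UMIs lie outside the barcodes that the comparisons used.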

How the results depend on the processing

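The lower share of Foxp3-positive barcodes in the TB library (log2 ratio -0.80) kept its direction under all 11 alternatives, from -1.0 to -0.55. For this share, the alternative with Cd4 and no Cd8 UMIs restricted only the Foxp3-positive barcodes and kept the whole CD3 gate as the total. Among barcodes with Cd4 and no Cd8 UMI, the Foxp3 shares were 44.4% in the TB library and 49.6% in the PBS library, with overlapping intervals. All 5 genes stayed at least 1.5-fold higher beside Foxp3 in both libraries under all 14 alternatives. Foxp3 in the CD3 gate (-1.09) came to -0.81 with the gate at 1 CD3 UMI and -0.90 with each barcode scaled alike. The number of the 6 genes at least 1.5-fold lower in the CD3 gate was 4, 2 with the gate at 1 UMI and 5 when thinned to 2000 UMIs. In Foxp3-negative barcodes it was 2, and 1 with the gate at 1 UMI. There Il2ra was added to the 2 when thinned to 2000 or 1000 UMIs or with each barcode scaled alike. In Foxp3-positive barcodes the number of genes was 1, and 0 without the top 5% of barcodes by UMIs, thinned to 1000 UMIs or with each barcode scaled alike. Directions turned in Foxp3-positive barcodes for Foxp3 (0.089) and Il2ra (0.14) with Cd4 and no Cd8 UMIs, and for Il10 (-0.00864) at 2 Foxp3 UMIs. In Foxp3-negative barcodes they turned for Areg, to -0.58 when thinned to 2000 UMIs and -1.24 without the barcode with most Areg UMIs. Where its main interval held equal levels, Areg also turned. In the CD3 gate it came to -0.72 thinned to 2000 UMIs, -0.15 with each barcode scaled alike and -0.86 without that barcode. In Foxp3-positive barcodes it came to -0.11 thinned to 2000 UMIs. Il10 in Foxp3-negative barcodes ran from -0.29 to 0.21. The cause of these changes was not tested. The setting without the barcode with most Areg UMIs and totals without haemoglobin UMIs were chosen after seeing the data. No paired analysis was possible because each group has 1 library and no result comes from a test, and no replicate could be left out. At these depths a Foxp3-negative barcode may hold unseen Foxp3 RNA.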
